A study of Canis lupus familiaris with 34 samples.

Results

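Sprouty and SPRED proteins and the dual-specificity phosphatases (DUSPs) are brakes on signalling from receptor tyrosine kinases. Such receptors act through RAS, RAF and MEK to ERK; Sprouty and SPRED proteins inhibit steps at RAS and RAF, and DUSP5 and DUSP6 remove the activating phosphates from ERK. Active ERK induces several of these genes, which closes a negative feedback loop, and their RNA is often read as a record of recent signalling. In mast cells the main receptor of this kind is KIT, the receptor for stem cell factor, and activating KIT mutations are known in canine mast cell tumours (MCTs). The members were named by symbol: SPRY1, SPRY2, SPRY4, SPRED1, SPRED2, DUSP1, DUSP4, DUSP5 and DUSP6. Of these 9 genes, 7 carried 1 Transcript cluster each under their symbol in the platform annotation, of 32391 clusters in all; DUSP1 and DUSP4 were not analysed here.

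Expression was measured in 34 primary cutaneous MCTs, each from a different dog. The 18 metastasising (M) MCTs came from dogs that died or were euthanased because of metastatic disease, whatever adjuvant therapy they received. The 16 non-metastasising (NM) MCTs came from dogs with long survival after surgery, no metastasis on staging and no adjuvant therapy. Dogs were aged 2 to 15 years in the M and 3 to 11 years in the NM cohort, with 9 males and 9 bitches against 11 males and 5 bitches. The M dogs were older on average, so age and group are partly confounded. The study also states that the NM specimens were on average older in storage than the M ones. It found no correlation of specimen age with RNA integrity. There were 10 breed entries among the M and 8 among the NM dogs, and Labrador Retrievers gave 7 M and 3 NM tumours. RNA came from formalin-fixed, paraffin-embedded whole biopsies, hybridised to canine gene arrays, and each value is the log2 expression of 1 cluster in 1 tumour. In such bulk samples, fewer cells of a type and less RNA per cell cannot be told apart. Values of different clusters are not compared with each other, because probes differ in brightness.

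The array medians lay between 1.79 and 1.91, and the number of arrays limits the precision. The median correlation of an array with the other arrays, used below as a measure of array similarity, ran from 0.790 to 0.907. Among mast cell markers, KIT ran from 1.73 to 4.88 in M and from 1.94 to 5.46 in NM MCTs. It exceeded 1.84, the median of the whole table, in 17 of 18 M and all 16 NM tumours. An array gives a value for every cluster, so this range does not test how rich in mast cells each tumour was. Of 9 tested mast cell markers other than KIT, 8 had an adjusted p under 0.05 on the slope on KIT (3.51% of all tested clusters). The highest r were those of GATA2 (r = 0.92), FCER1A (r = 0.91), MS4A2 (r = 0.89) and CMA1 (r = 0.89). CTSG, which is also in the mast cell score below, was not called and had r = -0.23 (limma, unadjusted p = 0.204). The 18 tested keratinocyte markers all had an unadjusted limma p under 0.05 and all were lower in M MCTs (2.8% of all tested clusters), with a median M minus NM difference of -1.13. That list includes genes the study picked as differing in these same tumours, such as KRT1, KRT10 and DSP, so its count is not independent evidence. The mean level of that list ran from 1.98 to 4.78 in M and from 2.13 to 6.01 in NM MCTs. A keratinocyte score was made from 16 tested epidermal genes, some of them on both lists. Of these, 9 were under 0.05 and lower in M MCTs (2.8% of all tested clusters), with a median difference of -0.26 over the 16 genes. The score, their mean standardised value, averaged -0.28 ± 0.42 in M (SD, n = 18) and 0.32 ± 0.84 in NM MCTs (SD, n = 16; permutation test, two-sided p = 0.0109). A mast cell score of 9 tested genes averaged -0.000991 ± 0.67 in M and 0.00111 ± 0.96 in NM MCTs (SD; permutation p = 0.994).

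The table as a whole had a median of 1.84, and the 19246 Transcript clusters that exceeded this level in 30% or more of either cohort were tested. Of the 7 measured members, 6 passed. SPRED2 did not: it exceeded this level in 4 M tumours (22.2%) and 4 NM tumours (25.0%). SPRED1 passed only through the NM cohort, with 2 M tumours (11.1%) and 6 NM tumours (37.5%) above the level, and SPRY2 only through the M cohort, with 8 M (44.4%) and 3 NM tumours (18.8%). Such clusters enter through the group in which they are high, so a count over the 6 members is a description only. The means of SPRY1, SPRY2, SPRED1 and SPRED2 in both groups lay close to the level, where signal is low, although single tumours reached 3.33 for SPRY1, 2.49 for SPRY2, 2.28 for SPRED1 and 2.20 for SPRED2. DUSP6 exceeded it in all 18 M and all 16 NM tumours, DUSP5 in 17 and 16, and SPRY4 in 17 and 14.

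The first question was whether the feedback inhibitor genes differ between M and NM MCTs. No member passed the test after Benjamini-Hochberg adjustment over all clusters (limma, adjusted p = 0.9997 for each of the 6). Neither did any of the 19246 clusters by limma (797 at an unadjusted p under 0.05). By an unpaired t-test, as in the methods, none passed the same adjustment either (790 at an unadjusted p under 0.05). The study adjusted its t-test by permutation, over clusters kept by its own detection filter, and did report differing clusters. The counts here are therefore not a repeat of its test. At an unadjusted p under 0.05, 3 of the 6 members, SPRY1, SPRED1 and DUSP5, were called, all 3 lower in M MCTs. The background for this count is 4.14% of clusters called in either direction and 2.8% called with a lower value in M MCTs. The median M minus NM difference was -0.18 over the 6 members and -0.02 over all tested clusters. The difference was below 0 for 5 of 6 members and for 56.1% of all clusters. SPRY1 is also among the genes the study picked as differing between these same tumours, so its difference here is not independent evidence.

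**Figure D1:**
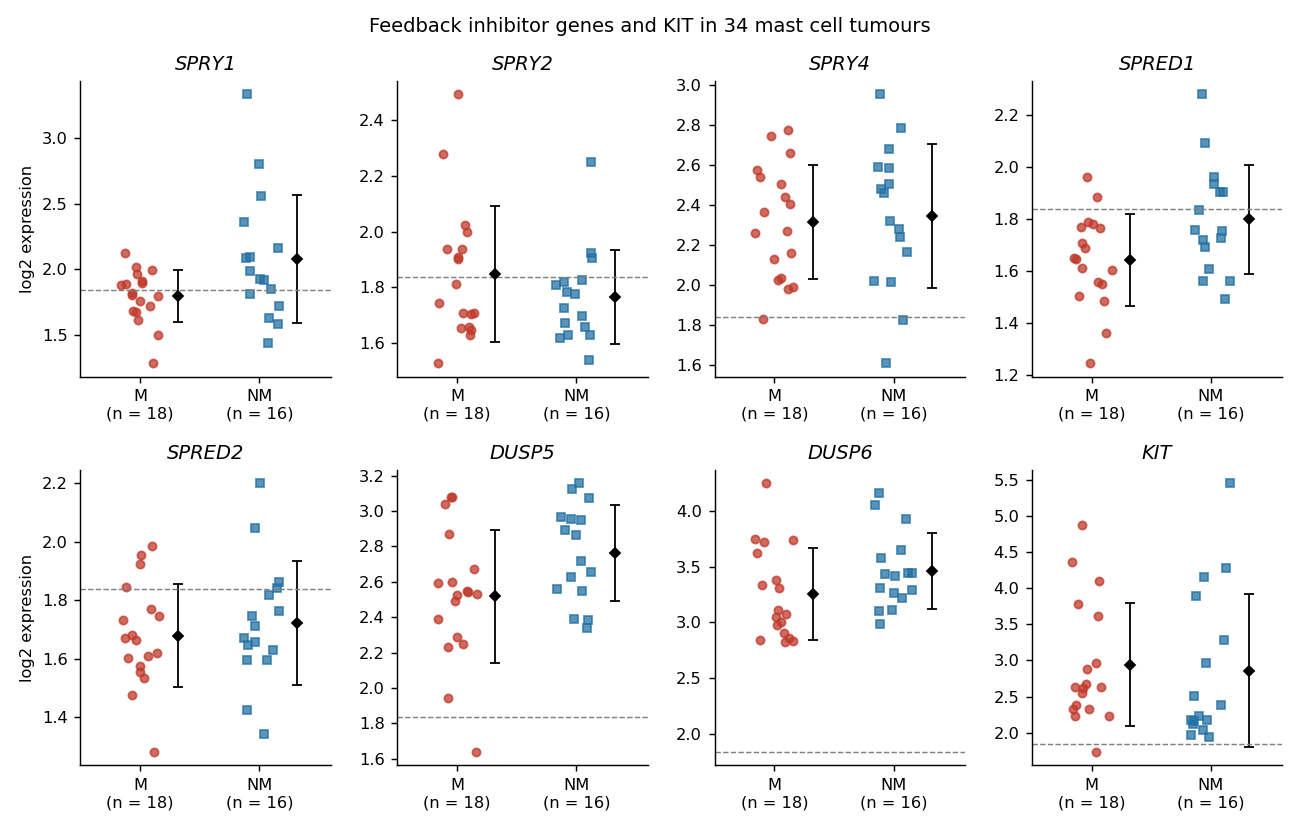
Log2 expression of 7 feedback inhibitor genes and KIT (y axis) in each of the 18 M (circles) and 16 NM MCTs (squares), with the mean and SD of each group as a diamond and bar, and the level used for testing, 1.84, as a dashed line. The groups overlap for every gene; 5 NM tumours lie above all M tumours for SPRY1, and 5 M tumours lie below all NM tumours for DUSP5.

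The Sprouty genes did not share a pattern. SPRY1 encodes an inhibitor of receptor kinase signalling upstream of ERK, and ran from 1.28 through a median of 1.81 to 2.12 in M MCTs, against 1.44, 1.95 and 3.33 in NM MCTs. The NM range reached well past the M range: 5 NM tumours exceeded every M tumour, the 4 highest being NM replicates 1 (3.33, a Boxer), 5 (2.80), 9 (2.56) and 14 (2.36). The means were 1.79 ± 0.20 in M (SD, n = 18) and 2.08 ± 0.49 in NM MCTs (SD, n = 16), so the NM spread was the wider. The difference was -0.28 (limma, SE 0.12, 95% interval -0.53 to -0.03, unadjusted p = 0.0289), a geometric mean in M of 0.822 times that in NM, with a permutation p of 0.0257. It was -0.20 (p = 0.0575) without NM replicate 1, -0.23 (p = 0.0588) without NM replicate 5 and -0.25 (p = 0.0521) without NM replicate 9.

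SPRY2, a widely expressed Sprouty, ran from 1.53 through 1.78 to 2.49 in M MCTs and from 1.54 through 1.75 to 2.25 in NM MCTs. Both groups covered nearly the same range, apart from M replicates 12 (2.49) and 15 (2.28), which were the highest of all. The difference was 0.08 (95% interval -0.07 to 0.23, unadjusted p = 0.284). SPRY4, a Sprouty that acts on RAS and RAF activation, ran from 1.83 through 2.32 to 2.78 in M and from 1.61 through 2.39 to 2.95 in NM MCTs. Its lowest 2 tumours, NM replicates 4 and 14, and its highest 2, NM replicates 2 and 5, were all NM. The means were 2.32 ± 0.28 in M and 2.35 ± 0.36 in NM MCTs (SD), and the difference was -0.03 (95% interval -0.25 to 0.20, p = 0.801).

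SPRED1 and SPRED2 encode Sprouty-related proteins; SPRED1 brings neurofibromin, a RAS inactivator, to the membrane, and in mice restrains ERK activation in haematopoietic cells. SPRED1 ran from 1.25 through 1.65 to 1.96 in M MCTs, against 1.49, 1.76 and 2.28 in NM MCTs. M replicates 18 (1.25), 1 (1.36) and 3 (1.48) lay below all NM tumours, and NM replicates 9 (2.28) and 6 (2.09) above all M tumours. The means were 1.64 ± 0.18 in M and 1.80 ± 0.21 in NM MCTs, both under the level for testing. The difference was -0.16 (SE 0.07, 95% interval -0.30 to -0.01, unadjusted p = 0.0311, permutation p = 0.0244), and its p passed 0.05 when any 1 of M replicates 1 and 18 or NM replicates 6 and 9 was left out, the highest being 0.0655 without NM replicate 9 (difference -0.12). SPRED2, which was not tested, ran from 1.28 to 1.98 in M and from 1.34 to 2.20 in NM MCTs, with means of 1.68 ± 0.18 and 1.72 ± 0.21 (SD; permutation p = 0.524).

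DUSP5, a nuclear phosphatase specific for ERK, ran from 1.64 through 2.54 to 3.08 in M MCTs, against 2.34, 2.79 and 3.16 in NM MCTs. The upper ends of the groups lay close together, while 14 of 18 M tumours were below the NM median and M replicates 9 (1.64), 10 (1.94), 18 (2.23), 3 (2.25) and 8 (2.29) were below every NM tumour. The means were 2.52 ± 0.37 in M and 2.76 ± 0.27 in NM MCTs (SD), a difference of -0.25 (SE 0.11, 95% interval -0.48 to -0.02, unadjusted p = 0.0358, permutation p = 0.0373). Leaving out 1 tumour moved the difference between -0.28 and -0.19, and its p was 0.05 or more in 11 of the 34 refits, those without M replicate 3, 8, 9, 10 or 18 or NM replicate 2, 3, 9, 11, 13 or 14, at most 0.0661 without M replicate 9.

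DUSP6 encodes a cytoplasmic phosphatase that is likewise specific for ERK and is widely used as a readout of ERK activity. It ran from 2.82 through 3.09 to 4.25 in M MCTs, against 2.99, 3.43 and 4.16 in NM MCTs. Most M tumours were low, with 13 of 18 below the NM median and 6 below every NM tumour, yet the highest tumour of all was M replicate 4 (4.25), a cross-breed. The means were 3.25 ± 0.41 in M and 3.46 ± 0.34 in NM MCTs (SD), a difference of -0.21 (SE 0.13, 95% interval -0.47 to 0.05, unadjusted p = 0.116). Without M replicate 4 the difference was -0.27 (p = 0.0299), and it was the only tumour whose omission brought that p under 0.05.

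**Figure D2:**
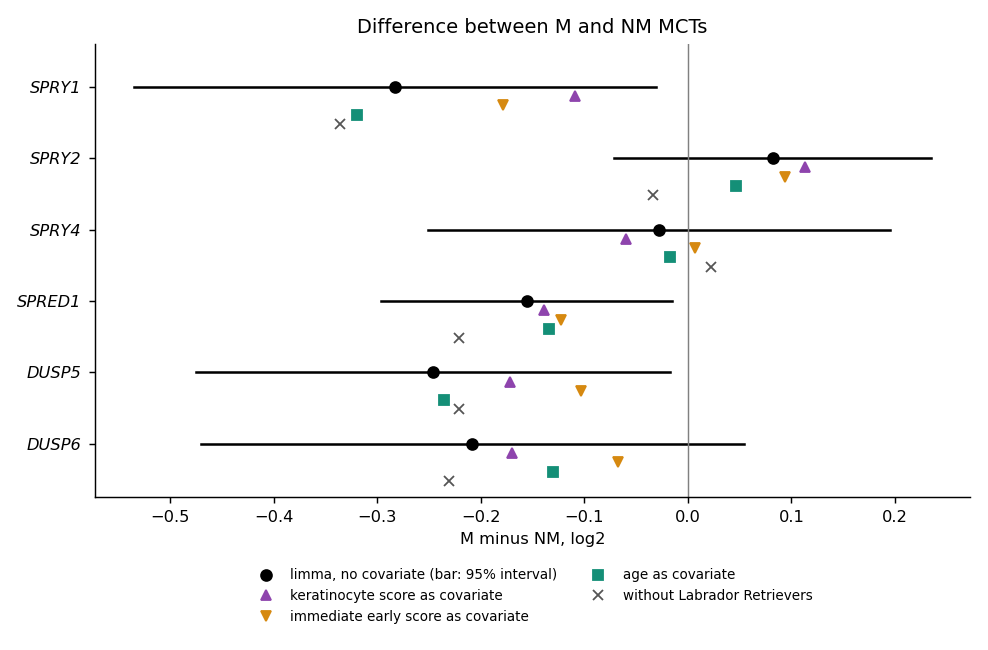
M minus NM difference in log2 expression (x axis) for the 6 tested genes; black points and bars are the limma estimate and its 95% interval, and the other symbols are the estimates with a covariate or without the Labrador Retrievers. The SPRY1 estimate is -0.28 without a covariate and -0.11 with the keratinocyte score, and that of DUSP5 is -0.25 without and -0.10 with the immediate early score.

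The number of members under 0.05 depended on what else entered the model. It stayed at 3 with the mast cell score, with sex and with breed as a random block. It was 2 with array similarity and 2 with array weights, where DUSP5 differed by -0.22 (limma, p = 0.0556) and -0.18 (p = 0.101). When the keratinocyte score was added to the model, 0 of 6 members had an unadjusted p under 0.05, against 2.46% of clusters; the M minus NM difference was then -0.11 for SPRY1 (p = 0.372), -0.14 for SPRED1 (p = 0.0819) and -0.17 for DUSP5 (p = 0.172). With age as a covariate only SPRY1 was under 0.05 (-0.32, p = 0.0312; 3.74% of clusters), while SPRED1 differed by -0.13 (p = 0.0993) and DUSP5 by -0.24 (p = 0.0784), close to the values without a covariate. Among the non-Labradors, 11 M and 13 NM tumours, only SPRED1 was (-0.22, p = 0.0192; 3.39% of clusters), while SPRY1 differed by -0.34 (p = 0.0562) and DUSP5 by -0.22 (p = 0.115), with estimates close to or larger in size than those over all tumours. SPRY2 had a difference of -0.03 there against 0.33 among the 7 M and 3 NM Labradors (exact permutation p = 0.0667 in the Labradors). In the Labradors SPRY1 differed by -0.06 (exact permutation p = 0.633), SPRED1 by -0.01 (p = 0.9) and DUSP5 by -0.44 (p = 0.0667). Whether the difference between M and NM MCTs depends on breed was not tested. Age itself, with group in the model, had no slope with an unadjusted p under 0.05 in any of the 6 members (p from 0.263 to 0.857; 4.75% of clusters), nor did sex (p from 0.124 to 0.952; 1.75% of clusters). The part of any of these factors in the differences was not tested further.

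Among the close relatives of the members no gene was called. Of the other Sprouty, SPRED and MAPK phosphatase genes, 7 were tested (SPRED3, DUSP2, DUSP7, DUSP8, DUSP9, DUSP10 and DUSP16), 0 had an unadjusted p under 0.05, and the median difference was -0.02. DUSP8, a phosphatase of stress kinases, had the smallest p of these (-0.13, p = 0.236). Of 12 tested genes for other negative regulators of receptor kinase signalling, 0 were under 0.05 and the median difference was -0.09. CBL, a ubiquitin ligase that marks active receptors for degradation, differed by -0.16 (p = 0.121) and INPP5D, the lipid phosphatase SHIP, by 0.25 (p = 0.170).

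Upstream, 12 genes of the RAS-ERK cascade were tested and 1, BRAF, was under 0.05 and lower in M MCTs (2.8% of clusters). It averaged 1.68 ± 0.17 in M and 1.88 ± 0.24 in NM MCTs (SD, difference -0.21, unadjusted limma p = 0.00770). BRAF encodes the RAF kinase most active on MEK, and is, like SPRY1, among the genes the study picked on these tumours. MAPK3, which encodes ERK1, differed by -0.29 (p = 0.120), and the median of the 12 was -0.000239. Of 14 tested receptor kinases, 3 were under 0.05, each lower in M MCTs (2.8% of clusters). They were EGFR (-0.27, p = 0.0149), FGFR2 (-0.19, p = 0.0187) and ERBB3 (-0.52, p = 0.0325), each a receptor of growth factors for epithelial cells. KIT averaged 2.94 ± 0.85 in M and 2.86 ± 1.06 in NM MCTs (SD; difference 0.08, 95% interval -0.56 to 0.72, p = 0.802). KITLG, the KIT ligand, did not reach the level for testing.

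Downstream, ERK and other kinases induce immediate early genes within a short time of stimulation. All 14 were tested, and 7 of 14 had an unadjusted p under 0.05, all lower in M MCTs (2.8% of clusters), with a median difference of -0.41. EGR3 (-0.39, p = 0.00949), NR4A1 (-0.39, p = 0.00949), FOSB (-0.56, p = 0.00959) and EGR1 (-1.05, p = 0.0100), all transcription factor genes, had the smallest p. Of 9 tested delayed targets of ERK, 2 were under 0.05 and lower in M MCTs (2.8% of clusters). They were EPHA4 (-0.14, p = 0.0356) and MYC (-0.26, p = 0.0431), the second of which is also on the immediate early list. The genes the study picked on these same tumours include EGR1, JUNB, FOS and MYC, so their differences here are not independent evidence. None of the genes in these lists passed after adjustment over all clusters. A score of the 14 immediate early genes averaged -0.31 ± 0.66 in M and 0.35 ± 0.64 in NM MCTs (SD; permutation p = 0.00601). The score includes EGR1, JUNB, FOS and MYC, so its p is not independent evidence either.

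The second question was whether the feedback inhibitor genes follow the receptor gene KIT from tumour to tumour. No such relation passed the test: 0 of 6 tested members had an adjusted p under 0.05 on the slope on KIT (limma, adjusted p from 0.324 to 0.780), and 0 of 6 had an unadjusted p under 0.05. The unadjusted count was 1, SPRY1, on ranks (p = 0.0422), with the keratinocyte score (slope -0.14, p = 0.0157) and with array similarity (slope -0.17, p = 0.0209), and its adjusted p was 0.155 or more in each. The background was 3.51% of clusters at the adjusted threshold, 658 with a positive and 17 with a negative slope, and 18.8% at the unadjusted one. KIT itself varied over 3.73 log2 units, and its correlation with the mast cell score was 0.92 (Spearman's rho 0.90, permutation p = 1e-05 for each, the smallest that the resampling can give).

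**Figure D3:**
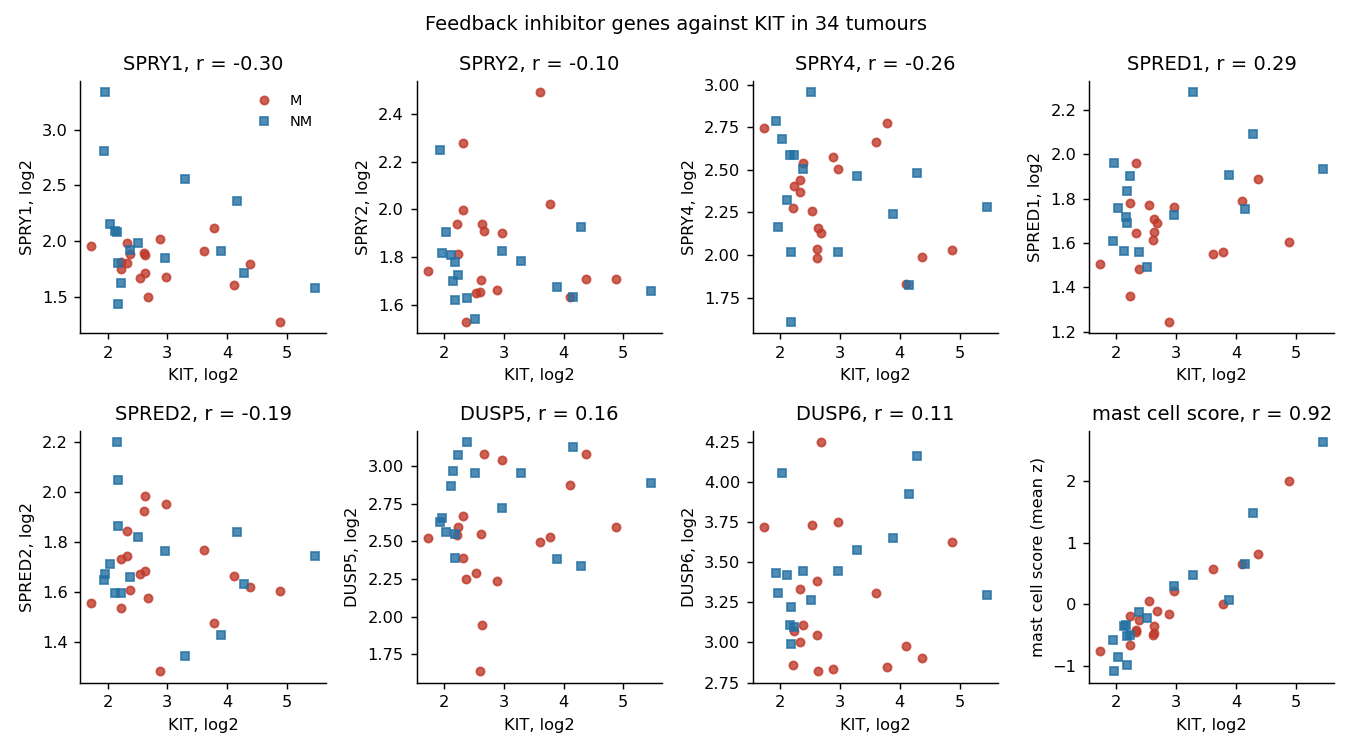
Log2 expression of each of the 7 measured feedback inhibitor genes, and the mast cell score (mean standardised value of 9 genes), on the y axes against log2 KIT on the x axes in 18 M (circles) and 16 NM MCTs (squares). The points of the feedback inhibitors scatter with r between -0.30 and 0.29, whereas the mast cell score has r = 0.92.

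The 3 Sprouty genes had negative correlations with KIT, and 55.8% of all tested clusters had a slope on KIT below 0. SPRY1 had r = -0.30 (permutation p = 0.0801) and rho = -0.35 (p = 0.0434) over the 34 tumours, with r = -0.39 within M and -0.30 within NM MCTs. The slope was -0.12 log2 units per log2 unit of KIT (95% interval -0.26 to 0.01, adjusted p = 0.324). The r was -0.15 after leaving out the 2 tumours farthest from the KIT median, NM replicate 12 (KIT 5.46, SPRY1 1.58) and M replicate 7 (KIT 4.88, SPRY1 1.28, the lowest of all). SPRY4 had r = -0.26 (p = 0.132) and rho = -0.31 (p = 0.0750), and r = -0.24 without those 2 tumours. SPRY2 had r = -0.10 (p = 0.575) and rho = -0.13 (p = 0.465), and r = -0.01 without them.

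SPRED2 also had a negative r, and SPRED1, DUSP5 and DUSP6 a positive one. SPRED1 had r = 0.29 (permutation p = 0.101) and rho = 0.21 (p = 0.229), with r = 0.16 within M and 0.46 within NM MCTs, and 0.30 without the 2 farthest tumours. SPRED2 had r = -0.19 (p = 0.286) and rho = -0.12 (p = 0.508), and r = -0.22 without them. DUSP5 had r = 0.16 (p = 0.382) and rho = 0.09 (p = 0.614), and 0.13 without them. DUSP6 had r = 0.11 (p = 0.522) and rho = 0.06 (p = 0.721), and 0.10 without them, with r = -0.11 within M and 0.40 within NM MCTs. The DUSP6 slope had a 95% interval of -0.10 to 0.19 log2 units per unit of KIT, and that of DUSP5 -0.07 to 0.19. These were 7 of 35 relations computed between the members and 5 measures of the tumours.

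Whether the KIT slope differed between M and NM MCTs was tested with an interaction term. No member was called (0 of 6, unadjusted p from 0.210 to 0.733), against 2.95% of clusters at an unadjusted p under 0.05 and 0 after adjustment. The widest gap was that of DUSP6, with a slope of -0.05 in M and 0.13 in NM MCTs (difference -0.18, 95% interval -0.46 to 0.11, p = 0.210).

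Some regulators from outside these families did pass the test on KIT. Of the 12 tested negative regulators outside the member families, 4 had an adjusted p under 0.05 on the KIT slope (3.51% of clusters). They are named here because they did: INPP5D (r = 0.75, adjusted p = 8.3e-05), PTPN6 (r = 0.67, adjusted p = 0.00115), SH2B3 (r = 0.65, adjusted p = 0.00297) and CBLB (r = 0.53, adjusted p = 0.0483). INPP5D, PTPN6 (the phosphatase SHP-1) and SH2B3 (the adaptor LNK) are restrainers of KIT and cytokine receptor signalling in blood cells, in which they are highly expressed. Of 12 genes of the RAS-ERK cascade, 2 were called (3.51% of clusters), the adaptors GRB2 (r = 0.70) and GAB2 (r = 0.51). With the mast cell score as a covariate 0 clusters were called on the KIT slope, so none of these 6 genes was. KIT and that score had r = 0.92, so this fit had little separate variation in KIT to work with. Of the 7 other Sprouty, SPRED and MAPK phosphatase genes, 0 were called, with a median r of -0.22. The differences between these lists were not tested.

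**Figure D4:**
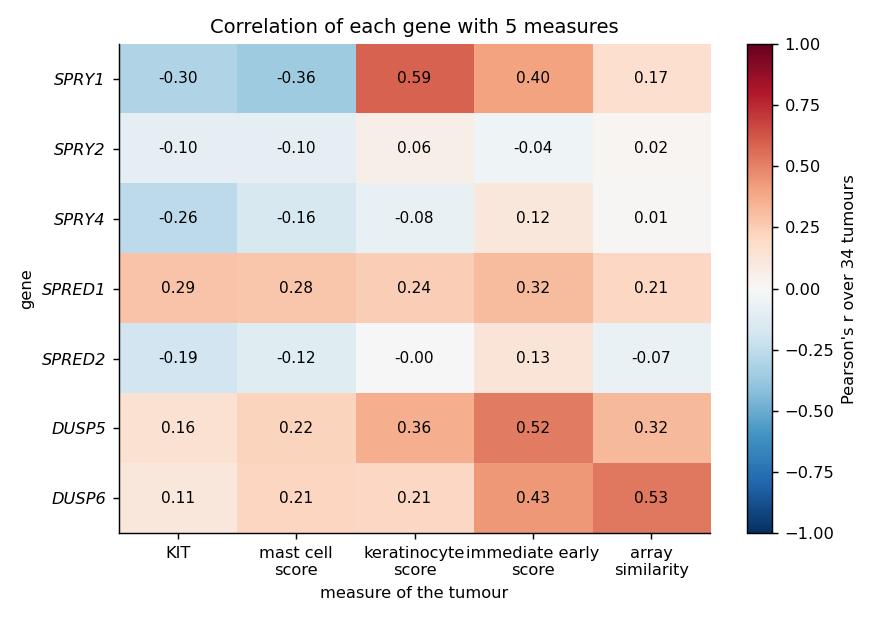
Pearson's r over 34 tumours, by colour from -1 to 1 and as a number, of each of 7 feedback inhibitor genes (rows) with 5 measures of the same tumours (columns). The highest values are SPRY1 with the keratinocyte score (0.59), DUSP6 with array similarity (0.53) and DUSP5 with the immediate early score (0.52).

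The members were next set against the other 4 measures, each with a fit over all clusters. These 4 relations were chosen after the group values had been seen. SPRY1 was the only member called on the keratinocyte score (r = 0.59, permutation p = 0.000440; rho = 0.42, p = 0.0149; adjusted p = 0.0108), against 3.04% of clusters. The r was 0.05 within M, whose score had the narrower spread, and 0.63 within NM MCTs, and whether the groups differ was not tested; it was 0.38 without the 2 tumours farthest from the score's median. The NM tumours highest in SPRY1, replicates 1, 5, 9 and 14, all had a positive keratinocyte score, but NM replicates 16 (score 1.02, SPRY1 1.85) and 12 (score 0.89, SPRY1 1.58) had a high score with SPRY1 at or below 1.85. SPRY1 had r = -0.36 with the mast cell score (permutation p = 0.0416, rho = -0.27, p = 0.125, adjusted p = 0.248), and -0.20 without the 2 farthest tumours. On that score 0 of 6 members were called, against 3.45% of clusters.

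DUSP5 was the only member called on the immediate early score (r = 0.52, permutation p = 0.00160; rho = 0.49, p = 0.00368; adjusted p = 0.0284), against 9.41% of clusters. It had r = 0.59 within M and 0.17 within NM MCTs, and 0.54 without the 2 farthest tumours. M replicates 9, 10 and 18, the lowest in DUSP5, had negative scores, as had most M tumours (M median -0.44). Their array similarity, 0.833, 0.820 and 0.802, was below the M median of 0.871. With group as a covariate the adjusted p was 0.0881, with array similarity 0.424, and with the keratinocyte score 0.215, while the slope, 0.25 without a covariate, was 0.22, 0.25 and 0.22. DUSP6 had r = 0.43 (permutation p = 0.0104; rho = 0.53, p = 0.00123; adjusted p = 0.0701), with r = 0.50 within M and 0.17 within NM MCTs. SPRY1 had r = 0.40 (p = 0.0177; rho = 0.32, p = 0.0661; adjusted p = 0.0956), with r = -0.36 within M and 0.62 within NM MCTs. With the immediate early score as a covariate, 0 of 6 members had an unadjusted p under 0.05 on the M minus NM difference (3.25% of clusters), which was -0.18 for SPRY1 (p = 0.200), -0.12 for SPRED1 (p = 0.127) and -0.10 for DUSP5 (p = 0.384).

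**Figure D5:**
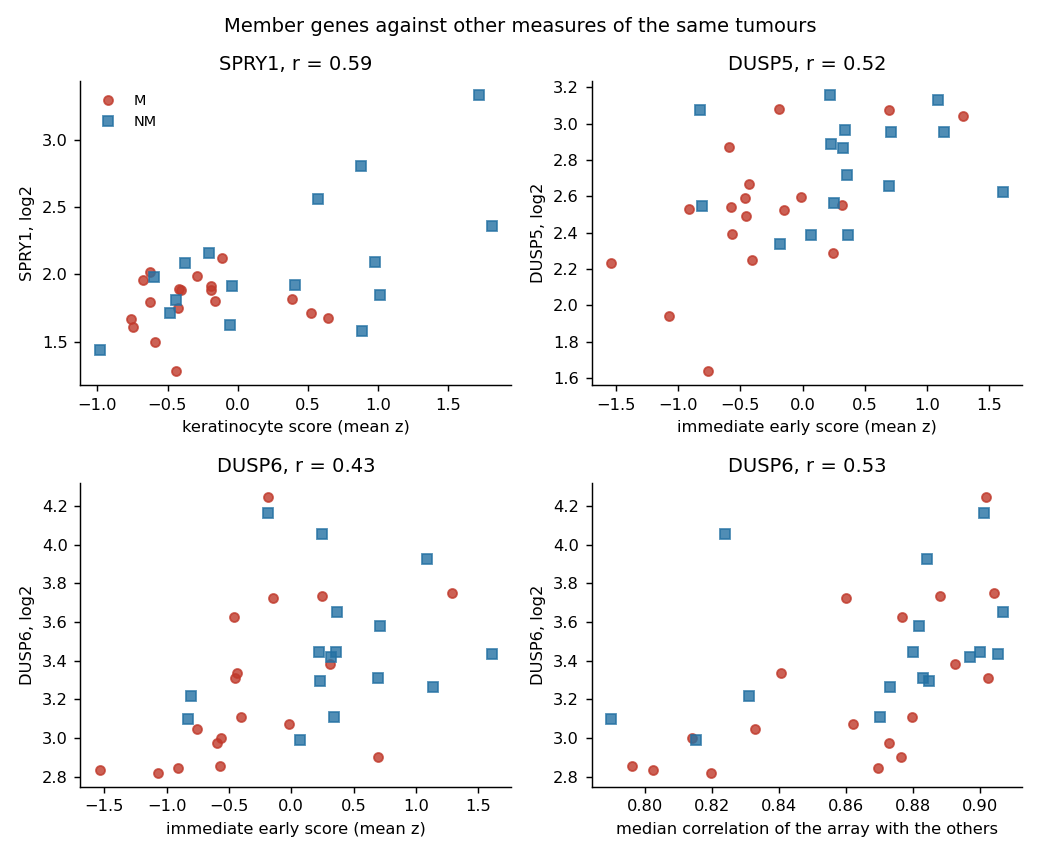
Log2 expression of SPRY1 against the keratinocyte score, DUSP5 and DUSP6 against the immediate early score (scores are means of standardised values), and DUSP6 against array similarity (median correlation of an array with the other arrays), in 18 M (circles) and 16 NM MCTs (squares). For SPRY1, r with the keratinocyte score is 0.05 within M tumours, which span a narrower range of the score, and 0.63 within NM tumours; the difference was not tested.

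DUSP6 was the only member called on array similarity (r = 0.53, permutation p = 0.00153; rho = 0.65, p = 3e-05; adjusted p = 0.0162), against 13.1% of clusters. Within groups, r was 0.63 in M and 0.36 in NM MCTs, which was not tested, and r was 0.49 without the 2 farthest tumours. Array similarity was also correlated with the immediate early score (r = 0.61, permutation p = 0.000160), the keratinocyte score (r = 0.41, p = 0.0143) and the mast cell score (r = 0.42, p = 0.0129), and these parts cannot be told apart here. With array similarity as a covariate, the DUSP6 slope on the immediate early score was 0.09 (unadjusted p = 0.359), against 0.23 (p = 0.00906) without it. DUSP5 had r = 0.32 with array similarity (permutation p = 0.0615; adjusted p = 0.199). Its r was 0.51 within M and -0.03 within NM MCTs, and 0.47 without the 2 farthest tumours.

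The correlations between members were weak. Among the 21 pairs of the 7 measured genes, Pearson's r ran from -0.24 (SPRY4 with SPRED2) to 0.32 (SPRY2 with SPRY4), with a median of 0.03, and 0 pairs had a permutation p under 0.05. By Spearman's rho 1 pair of 21 did, SPRY1 with SPRY4 (rho = 0.43, permutation p = 0.0122, unadjusted; r = 0.25, p = 0.157), whose r was 0.63 within M and 0.12 within NM MCTs. The ERK phosphatases DUSP5 and DUSP6 had r = 0.26 (p = 0.132), with 0.40 within M and -0.22 within NM MCTs, and SPRED1 and SPRED2 had r = 0.02 (p = 0.914). M replicate 4 was the highest M tumour in both DUSP5 and DUSP6 but the second lowest M tumour in SPRY1, and M replicate 18 was the lowest M tumour in SPRED1 and SPRED2 and among the lowest 3 in DUSP5 and DUSP6. M replicate 18 also had the lowest immediate early score of all (-1.54), the highest array median (1.91) and an array similarity of 0.802.

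The genes with the most similar pattern over the 34 tumours were found among 10465 other gene symbols. SPRY1 was most like PNPLA3 (r = 0.77), SYNE2 (r = 0.77) and ESRP1 (r = 0.76), a regulator of splicing in epithelial cells, but their rho was lower, at 0.53, 0.53 and 0.40. ESRP1 is also a gene of the keratinocyte score, so its r with SPRY1 is not separate from that of the score. SPRY4 was most like ALDH3A1 (r = 0.78), ANTXRL (r = 0.73) and FAM241B (r = 0.73), with rho of 0.72, 0.77 and 0.75. SPRED1 was most like SRPK2 (r = 0.69), FAT1 (r = 0.68) and SETD2 (r = 0.67). DUSP5 was most like RHOT2 (r = 0.66), TAF6 (r = 0.62) and PHC2 (r = 0.62), and DUSP6 was most like SUSD2 (r = 0.68), CCDC107 (r = 0.67) and KDM3B (r = 0.64). For SPRY2 they were PLEKHG4B (r = 0.61), CBD139 (r = 0.60) and ADAMTS13 (r = 0.59), and for SPRED2 TP53TG5 (r = 0.60), LOC102155709 (r = 0.59) and GFOD1 (r = 0.59). No member was among the nearest genes of another.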

How the data were processed

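RNA from FFPE biopsies of 34 MCTs was hybridised by the study to Canine Gene 1.1 ST arrays. The authors excluded outlier arrays, then normalised and summarised the rest with the Robust Multichip Analysis algorithm, and deposited log2 values, 1 for each Transcript cluster and tumour. The processing notes of the submitters name Affymetrix Expression Console 1.3. The genome build is not given in the sources used here, and although arrays were hybridised in strips, which tumour was on which strip is not given there either. The study's exon-level detection filter was replaced by the level filter (above 1.84, the table median, in at least 30% of a cohort). Symbols came from the platform annotation, which gives 1 symbol to 16878 of 32391 clusters. Groups came from the labels, and age and sex from the study's tables of dogs.

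Models were fitted with limma 3.58.1 (R 4.3.3), and p was adjusted by Benjamini-Hochberg over all tested clusters. Single values were compared with two-sided permutation tests (100000 resamples, scipy 1.17.1 and numpy 2.4.6). Scores are means of standardised values over the tested genes of a list. Members, lists and tests were chosen with earlier results of these data known, and 2 genes (MYC, IER3) stand on both the immediate early and the delayed list. Named genes are the members, KIT, up to 4 genes of each pathway list with the smallest p between groups, and the 3 genes most correlated with each member; genes called on KIT were named after their values were seen. When known changes were simulated on clusters as variable as those measured, limma called 26 of 50 clusters changed by 0.5 between groups and 143 of 200 changed along KIT. Alternatives were level filters, array weights, a variance trend, the methods' t-test, covariates, breed as a block, leaving out tumours, ranks and repeated normalisation.

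Replicate numbers are shared by 16 M and 16 NM tumours. The deviations of same-numbered tumours correlated from -0.61 to 0.44, and 0 M tumours correlated best with their own number, so the numbers were not taken as pairs.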

Additional observations from a re-analysis of the deposited data

How the results depend on the processing

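The count of members with an unadjusted p under 0.05 between M and NM MCTs, 3 in the fit without covariates, was 0 with the keratinocyte score, 1 with age, 1 without Labrador Retrievers, 1 at the higher level filter (75th percentile, where only SPRY4, DUSP5 and DUSP6 remained to be tested), and 1 with the replicate number as a block, although the numbers pair no tumours. With the immediate early score, alone or with the keratinocyte score, both chosen after seeing the data, it was 0. Leaving out 1 tumour gave 0 to 4, with 0 without NM replicate 9 and 1 without M replicate 18. The count of clusters called between M and NM MCTs after adjustment stayed 0 in each of these fits. The SPRY4 difference, -0.03, was 0.00227 with sex, 0.0229 without Labradors, 0.00709 with the immediate early score, and between -0.0771 and 0.0126 without 1 tumour; the SPRY2 difference, 0.08, was -0.0338 without Labradors. The count of members with an adjusted p under 0.05 on the KIT slope stayed 0 under every alternative run, while SPRY1 had an unadjusted p under 0.05 on ranks, with the keratinocyte score and with array similarity. The count of clusters called on KIT, 675, was 169 on ranks, 0 with the mast cell score, 259 with array similarity, 106 in M and 150 in NM tumours, 162 without the 2 farthest tumours and 346 after repeated quantile normalisation. The mast cell score had r = 0.92 with KIT, so a fit with both had little separate variation in KIT. Slopes on KIT changed sign with that score for SPRY1 (0.0779), DUSP5 (-0.12) and DUSP6 (-0.24). That of DUSP6 also did with array similarity (-0.0380), in M tumours (-0.0510) and after repeated normalisation (-0.0226). On the immediate early score, 1810 clusters and 1 member were called; these were 0 members with group, 55 clusters and 0 members with the keratinocyte score, 2 and 0 with array similarity, 445 and 0 in M, and 0 and 0 in NM tumours. Signs there turned for SPRY2 with group (0.0177) and in NM tumours (0.0816), for SPRY1 (-0.11) and SPRY4 (-0.0623) in M tumours, and for SPRED1 in NM tumours (-0.0689). The causes of these shifts were not tested. SPRY1, SPRY2, SPRED1 and SPRED2 average near the median of the table, where dim signal limits what the arrays can resolve.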
